A study of Rattus norvegicus with 6 samples.

Results

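Proton pump subunits that occur as paired isoforms were followed in rat glomerular isolates, in which each of 5 kidney-enriched isoforms was set beside its widely expressed partner. The 10 genes were Atp6v1b1 and Atp6v1b2, Atp6v0a4 and Atp6v0a1, Atp6v1c2 and Atp6v1c1, Atp6v1g3 and Atp6v1g1, and Atp6v0d2 and Atp6v0d1, of 14506 genes measured with 1 gene symbol. They were taken by symbol, and each of the 10 had exactly 1 probeset, so no choice among probesets was needed. RNA was from male Sprague-Dawley rats on Affymetrix whole-transcript arrays. PEC-enriched isolates were capsulated glomeruli caught on a 90 µm sieve, and PEC-deprived isolates were decapsulated glomeruli caught on a 75 µm sieve, with 3 arrays of each. PECs are the parietal epithelial cells that line Bowman's capsule. No group was treated, nothing was cultured, and medulla and papilla had been discarded from all samples. Both isolates are mixtures with whole glomerular tufts. By the study's microscopy the PEC-enriched preparations also held a sizeable share of decapsulated glomeruli, and tubule fragments were more frequent in them than in all PEC-deprived preparations but the richest, which exceeded them. Those preparations are not tied to arrays in the labels. Each array held RNA of individual rats. The study's methods give n = 3 animals for the isolations, which is fewer than the arrays. The sources used here do not say whether both fractions came from the same rats. If they did, the arrays are not independent, and the main comparison was unpaired.

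The vacuolar proton ATPase is a rotary pump that uses ATP to move protons across membranes. Its V1 sector, which includes subunits B, C and G, lies in the cytosol and hydrolyses ATP, and its V0 sector, which includes subunits a and d, lies in the membrane and carries the protons. Every cell uses the pump to acidify lysosomes and endosomes. In kidney, intercalated cells of the connecting tubule and collecting duct place pumps with the B1, a4, C2, G3 and d2 isoforms in the plasma membrane to secrete acid, and proximal tubule cells carry pumps in the brush border and in endosomes. Inherited loss of B1 or a4 in humans causes distal renal tubular acidosis.

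The values are RMA log2 expression values, and a log2 fold change is the PEC-enriched mean minus the PEC-deprived mean. All 10 genes averaged higher in PEC-enriched isolates. The 5 kidney-enriched isoforms had log2 fold changes of 0.27 to 1.21 with a median of 1.07, and the 5 widely expressed isoforms 0.03 to 0.46 with a median of 0.15. The median log2 fold change over all genes was -0.019. Of the kidney-enriched isoforms, Atp6v1b1, Atp6v1c2, Atp6v1g3 and Atp6v0d2 were faint, with mean levels above 34.9%, 35.7%, 32.4% and 23.6% of genes. Atp6v0a4 stood above 72.5%, and the widely expressed isoforms above 83.5% to 97.0%. Without detection calls it is not known whether the faint probesets lie above background. In 5 of 5 kidney-enriched and 2 of 5 widely expressed isoforms every PEC-enriched array lay above every PEC-deprived array, which was so in 7.24% of 29215 probesets. The study's methods set the threshold at an adjusted p of 0.01, below which limma found 0 of the 10, beside 0% of all probesets, whose smallest adjusted p was 0.152. At an unadjusted p under 0.05 in limma there were 5 kidney-enriched and 2 widely expressed isoforms, all higher, beside 5.77% of probesets that were higher at that level. A regularised test of the kind the methods name, which combines each group variance with that of probesets of like level at a prior weight of 10, called 3 of the 10 at an adjusted p under 0.01, beside 0.965% of probesets called higher. These were Atp6v1b1, Atp6v0d2 and Atp6v0a4, and at prior weights of 5 and 3 it called 0 of the 10. The same 3 genes are in the list that the study chose on these arrays, so their direction is not independent evidence.

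**Figure D1:**
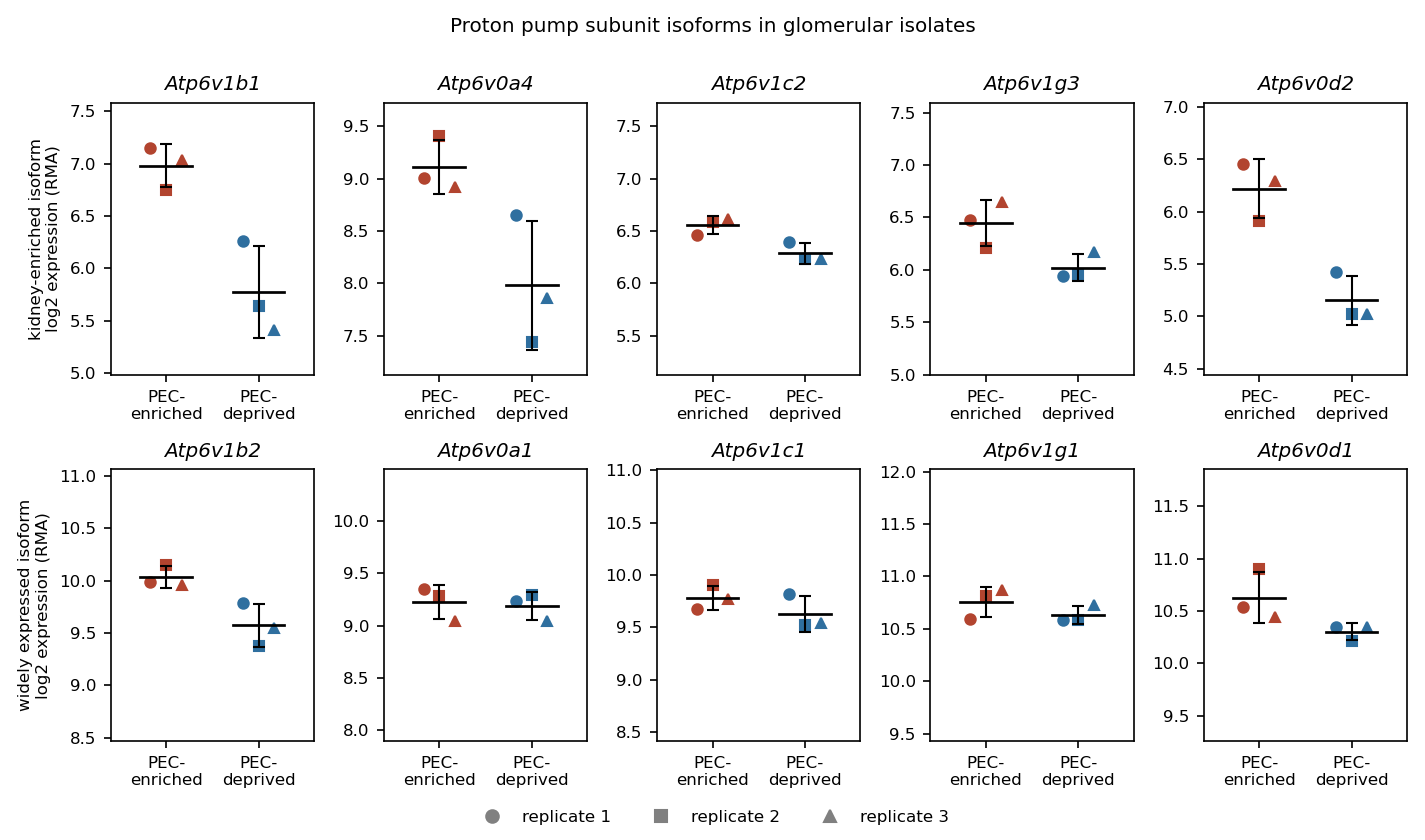
Log2 expression (y axis, RMA) of the 5 kidney-enriched (upper row) and 5 widely expressed (lower row) isoforms in PEC-enriched and PEC-deprived isolates. Points are arrays with shape giving the replicate, lines are means of 3 arrays, bars are SDs, and all panels span the same number of log2 units; the groups are apart in every panel of the upper row.

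Promoter sequence was looked up in RefSeq (GRCr8) for the 10 genes, and 7 matched. Atp6v1b2, Atp6v1c1 and Atp6v0d2 did not. The 250 bases before the annotated start were searched on both strands for TAAACA, the core of the sites bound by forkhead factors such as Foxi1 of intercalated cells, and for CACGTG, the E-box within the element of lysosomal genes bound by Tfeb. TAAACA was in 12.1% of 33469 promoters and CACGTG in 5.59%. Among the matched genes, TAAACA was in 2 of 4 kidney-enriched and 0 of 3 widely expressed isoforms, and CACGTG in 0 of 4 and 1 of 3. The 3 promoters with a match are shown, with that of Atp6v0a4, which differed most between the isolates among matched genes without one. Capitals mark the motif, which reads TGTTTA where TAAACA lies on the opposite strand.
Atp6v1b1, chr4:117781194-117781443, plus strand: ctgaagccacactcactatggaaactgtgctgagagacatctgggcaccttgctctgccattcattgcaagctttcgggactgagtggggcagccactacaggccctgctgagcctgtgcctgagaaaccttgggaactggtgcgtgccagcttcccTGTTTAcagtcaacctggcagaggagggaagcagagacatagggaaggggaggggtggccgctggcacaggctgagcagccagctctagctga
Atp6v1g3, chr13:52362082-52362331, plus strand: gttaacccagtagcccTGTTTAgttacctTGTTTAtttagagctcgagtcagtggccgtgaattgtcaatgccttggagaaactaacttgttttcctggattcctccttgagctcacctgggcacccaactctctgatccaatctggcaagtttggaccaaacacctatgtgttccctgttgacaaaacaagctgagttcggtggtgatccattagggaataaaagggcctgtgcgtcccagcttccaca
Atp6v0a4, chr4:67809093-67809342, minus strand: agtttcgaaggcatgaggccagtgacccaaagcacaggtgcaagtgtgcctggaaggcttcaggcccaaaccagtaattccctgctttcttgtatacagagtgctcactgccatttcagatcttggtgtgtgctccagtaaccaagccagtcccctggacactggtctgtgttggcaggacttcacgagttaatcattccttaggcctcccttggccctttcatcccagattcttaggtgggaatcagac
Atp6v0d1, chr19:50357249-50357498, minus strand: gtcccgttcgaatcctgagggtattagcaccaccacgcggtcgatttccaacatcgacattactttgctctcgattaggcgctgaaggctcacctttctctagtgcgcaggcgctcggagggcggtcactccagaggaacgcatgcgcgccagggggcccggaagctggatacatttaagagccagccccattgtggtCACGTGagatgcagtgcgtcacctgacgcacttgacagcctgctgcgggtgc
The match in Atp6v1b1 lay 93 to 88 bases before the start. Those in Atp6v1g3 lay at 234 to 229 and 221 to 216 bases, and the E-box of Atp6v0d1 at 52 to 47 bases. A match describes letters in this window and is not evidence of a bound site.

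Atp6v1b1 encodes the B1 subunit of the V1 sector, the isoform of intercalated cells. It had 7.15, 6.75 and 7.03 in PEC-enriched replicates 1, 2 and 3, against 6.26, 5.64 and 5.41 in PEC-deprived replicates 1, 2 and 3. The groups did not overlap, and PEC-deprived replicate 1 lay nearest to the PEC-enriched arrays. It averaged 6.98 ± 0.205 on PEC-enriched and 5.77 ± 0.437 on PEC-deprived arrays (SD, n = 3 each), which is 2.31-fold and a log2 fold change of 1.21 (standard error, SE, 0.212, limma adjusted p = 0.162, and adjusted p = 0.000298 by the regularised test). This stood above 99.5% of all genes. Atp6v1b2, the B2 subunit found in most tissues, had 9.99, 10.15 and 9.96 in PEC-enriched and 9.79, 9.38 and 9.55 in PEC-deprived isolates. These groups did not overlap either, and the log2 fold change, 0.46 (SE 0.123, adjusted p = 0.255 in limma), was the highest of the widely expressed isoforms. In bulk isolates, more cells of a type and more RNA per cell cannot be told apart.

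Atp6v0a4 encodes the a4 subunit of the V0 sector, known in the mouse from intercalated cells and from the proximal tubule. Its log2 expression was 9.01, 9.41 and 8.92 in PEC-enriched and 8.65, 7.44 and 7.86 in PEC-deprived isolates, in replicate order. Replicate 2 was the highest PEC-enriched array and the lowest PEC-deprived array, and replicate 1 the highest PEC-deprived array. It averaged 9.11 ± 0.26 on PEC-enriched and 7.98 ± 0.613 on PEC-deprived arrays (SD, n = 3 each), and the log2 fold change was 1.13, or 2.19-fold (SE 0.282, limma adjusted p = 0.228, and adjusted p = 0.003 by the regularised test). The regularised test kept Atp6v1b1 and Atp6v0d2 under each of the 6 arrays left out, whereas its call of Atp6v0a4 ended without PEC-deprived replicate 2 (log2 fold change 0.86, adjusted p = 0.0181), without PEC-deprived replicate 3 (1.07, adjusted p = 0.0244) or without PEC-enriched replicate 2 (0.98, adjusted p = 0.0197). Its partner Atp6v0a1, which encodes the a1 subunit of neurons and many other cells, had 9.35, 9.28 and 9.04 in PEC-enriched and 9.24, 9.29 and 9.04 in PEC-deprived isolates. These groups overlapped throughout, and the log2 fold change of 0.03 had a 95% interval of -0.24 to 0.30.

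Atp6v0d2 encodes the d2 subunit of the V0 sector, which in the mouse is also expressed in osteoclasts and macrophages. It had 6.46, 5.91 and 6.29 in PEC-enriched against 5.42, 5.02 and 5.02 in PEC-deprived isolates. The groups were well apart, with the lowest PEC-enriched array in replicate 2 and the highest PEC-deprived array in replicate 1. It averaged 6.22 ± 0.278 on PEC-enriched and 5.15 ± 0.23 on PEC-deprived arrays (SD, n = 3 each), and the log2 fold change was 1.07, or 2.1-fold (SE 0.168, limma adjusted p = 0.152, and adjusted p = 0.00069 by the regularised test). The macrophage and leukocyte markers on these arrays averaged lower in PEC-enriched isolates for 5 of 5 genes (median -0.44). The groups overlapped in all 5, with 1 at an unadjusted p under 0.05 in limma and 0 called after adjustment. The share of all probesets that were lower at that unadjusted level was not counted, so the 1 cannot be set against it. The mean log2 level of these markers was 8.34 on PEC-enriched replicate 1, beside 8.10 to 8.35 on PEC-deprived arrays. The part of macrophage RNA in the Atp6v0d2 difference was not tested. Atp6v0d1, the d1 subunit used by most cells, had 10.54, 10.9 and 10.44 in PEC-enriched and 10.35, 10.21 and 10.35 in PEC-deprived isolates. It too did not overlap, by a narrow margin, and its log2 fold change was 0.32 (SE 0.131, limma adjusted p = 0.443).

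Atp6v1g3 encodes the G3 subunit, part of the peripheral stalk of V1. It had 6.48, 6.21 and 6.65 in PEC-enriched and 5.94, 5.95 and 6.17 in PEC-deprived isolates. The lowest PEC-enriched array, again replicate 2, was just above PEC-deprived replicate 3, and the log2 fold change was 0.43 (SE 0.131, limma adjusted p = 0.311). The widely expressed Atp6v1g1 had 10.59, 10.81 and 10.87 in PEC-enriched and 10.58, 10.58 and 10.73 in PEC-deprived isolates. Its groups overlapped, with a log2 fold change of 0.13 and a 95% interval of -0.11 to 0.37.

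Atp6v1c2 encodes the C2 subunit, whose V1 position links the sectors of the pump. It had 6.46, 6.59 and 6.62 in PEC-enriched and 6.40, 6.23 and 6.23 in PEC-deprived isolates. The groups were separated by a margin smaller than the spread within either, and the log2 fold change, 0.27 (SE 0.0975, adjusted p = 0.374 in limma), was the lowest of the kidney-enriched isoforms. Atp6v1c1, the C1 subunit of most cells, had 9.67, 9.9 and 9.77 in PEC-enriched and 9.82, 9.52 and 9.54 in PEC-deprived isolates. PEC-deprived replicate 1 lay among the PEC-enriched arrays, and the log2 fold change was 0.15 with a 95% interval of -0.12 to 0.41.

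**Figure D2:**
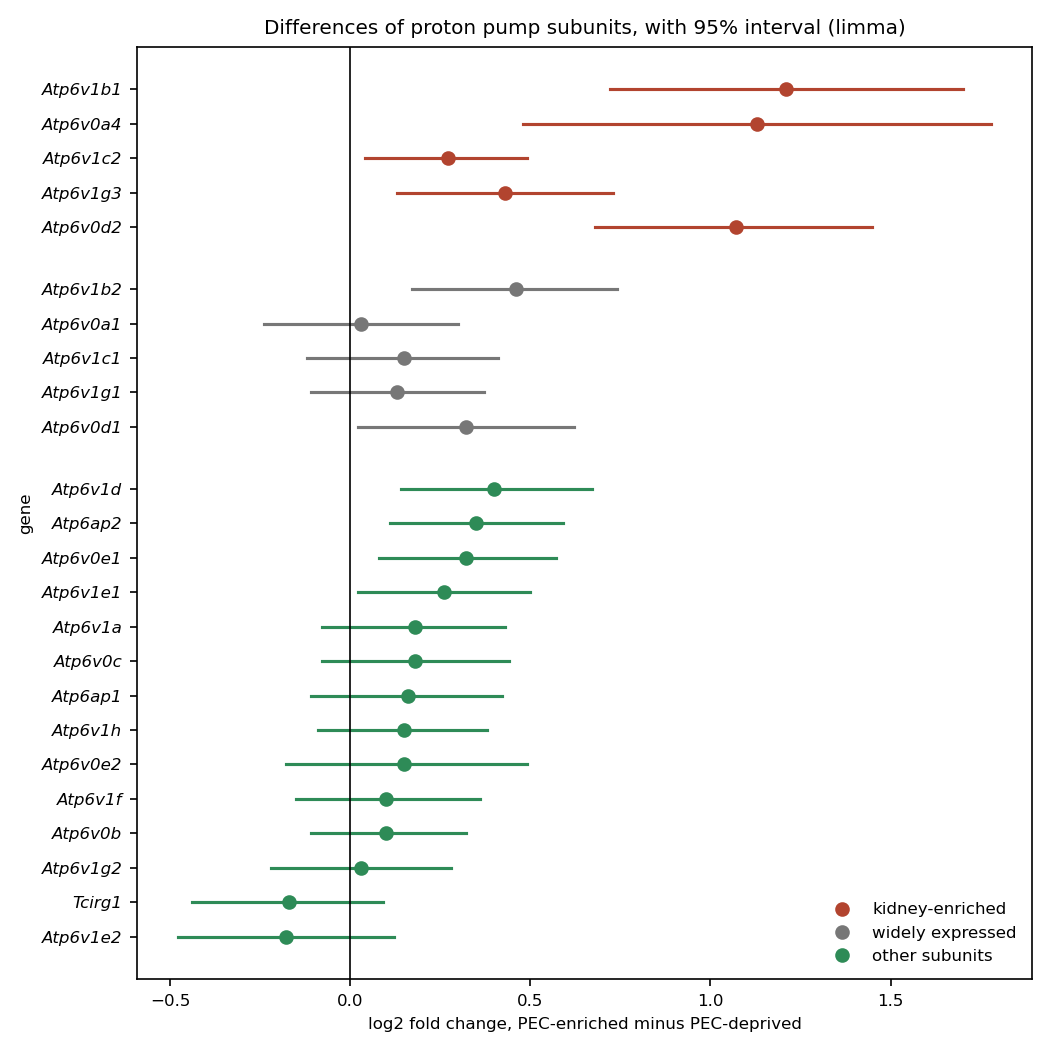
Log2 fold changes (x axis, PEC-enriched minus PEC-deprived) of the 5 kidney-enriched isoforms, the 5 widely expressed isoforms and 14 other proton pump genes (y axis). Points are estimates and lines 95% intervals of limma; Atp6v1b1, Atp6v0a4 and Atp6v0d2 lie at 1.07 and above, and every other gene at 0.46 or below.

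Whether the isoforms of a pair differed unequally between the isolates was tested within arrays. On each array the log2 value of the widely expressed isoform was subtracted from that of its kidney-enriched partner, and the 6 differences were compared between the groups with an exact permutation test (two-sided, 20 splits, smallest possible p = 0.1 for 3 arrays against 3, so that no pair could pass 0.05). Probesets differ in how strongly they hybridise, so only the shift of such a difference between arrays can be read, not its size. For Atp6v1b1 minus Atp6v1b2 the values were -2.84, -3.40 and -2.93 in PEC-enriched and -3.53, -3.74 and -4.14 in PEC-deprived isolates. The groups did not overlap, and the mean within-array difference was 0.75 higher in PEC-enriched isolates (exact permutation p = 0.1). For Atp6v0a4 minus Atp6v0a1 they were -0.34, 0.13 and -0.12 in PEC-enriched and -0.59, -1.85 and -1.18 in PEC-deprived isolates. The groups were apart again, with the widest shift of the 5 pairs at 1.10 (exact permutation p = 0.1), which ran from 0.78 to 1.41 over the arrays left out in turn.

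The other 3 pairs overlapped. Atp6v0d2 minus Atp6v0d1 was -4.08, -4.99 and -4.15 in PEC-enriched and -4.93, -5.19 and -5.34 in PEC-deprived isolates. Its shift of 0.75 was as large as that of the B subunits, but PEC-enriched replicate 2 fell just below PEC-deprived replicate 1 (exact permutation p = 0.2). Atp6v1g3 minus Atp6v1g1 was higher by 0.30 in PEC-enriched isolates (exact permutation p = 0.2), with means of -4.31 ± 0.254 on PEC-enriched and -4.61 ± 0.0441 on PEC-deprived arrays (SD, n = 3 each). PEC-enriched replicate 2 lay among the PEC-deprived arrays here too. Atp6v1c2 minus Atp6v1c1 was higher by 0.12 (exact permutation p = 0.2), with means of -3.22 ± 0.0802 on PEC-enriched and -3.34 ± 0.0657 on PEC-deprived arrays. All 5 shifts were positive under each array left out and with cyclic loess. Median centring cannot change them, since it takes the same value from both isoforms on an array.

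**Figure D3:**
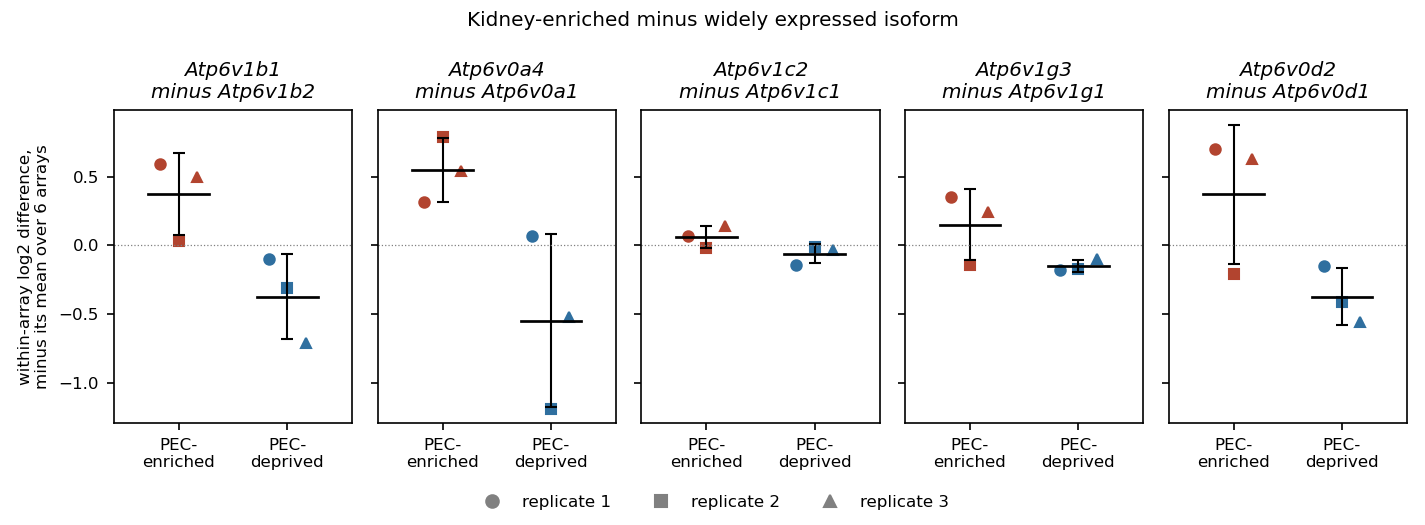
Within-array log2 difference of each isoform pair (y axis, kidney-enriched minus widely expressed, centred on its mean over 6 arrays) in PEC-enriched and PEC-deprived isolates. Points are arrays with shape giving the replicate, lines are means and bars SDs of 3 arrays; the groups are apart for the B and a subunits and overlap for the C, G and d subunits.

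The kidney-enriched isoforms did not share an order of the arrays. PEC-enriched replicate 2 was the lowest PEC-enriched array for Atp6v1b1, Atp6v0d2 and Atp6v1g3, and the highest for Atp6v0a4. For Atp6v1c2 it was neither, with replicate 1 the lowest and replicate 3 the highest PEC-enriched array. Of the widely expressed isoforms, Atp6v1b2, Atp6v1c1 and Atp6v0d1 were also highest on that array. The 11 intercalated cell markers had mean log2 levels of 6.85, 6.62 and 6.77 in PEC-enriched and 6.48, 6.00 and 6.16 in PEC-deprived isolates, in replicate order. Replicate 2 was their lowest PEC-enriched array, and it was also the lowest for distal convoluted and connecting tubule, endothelial, mesangial and macrophage and leukocyte markers. On PEC-deprived arrays the intercalated markers ran from high to low in replicates 1, 3 and 2, whereas Atp6v1b1 did so in replicates 1, 2 and 3 and Atp6v1g3 in replicates 3, 2 and 1. The 8 proximal tubule markers had 9.98, 10.59 and 9.81 in PEC-enriched and 9.80, 8.55 and 9.15 in PEC-deprived isolates. Replicate 2 was their highest PEC-enriched and their lowest PEC-deprived array, and within each isolate the order of the 3 arrays was that of Atp6v0a4 and of Atp6v1b2. The 5 PEC markers, at 8.07, 8.93 and 8.41 in PEC-enriched and 7.46, 6.78 and 7.07 in PEC-deprived isolates, were also highest and lowest on the replicate 2 arrays and shared the PEC-deprived order. With 3 arrays a group these orders are a description, and the part of intercalated cell, proximal tubule or PEC RNA in the isoform differences was not tested.

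**Figure D4:**
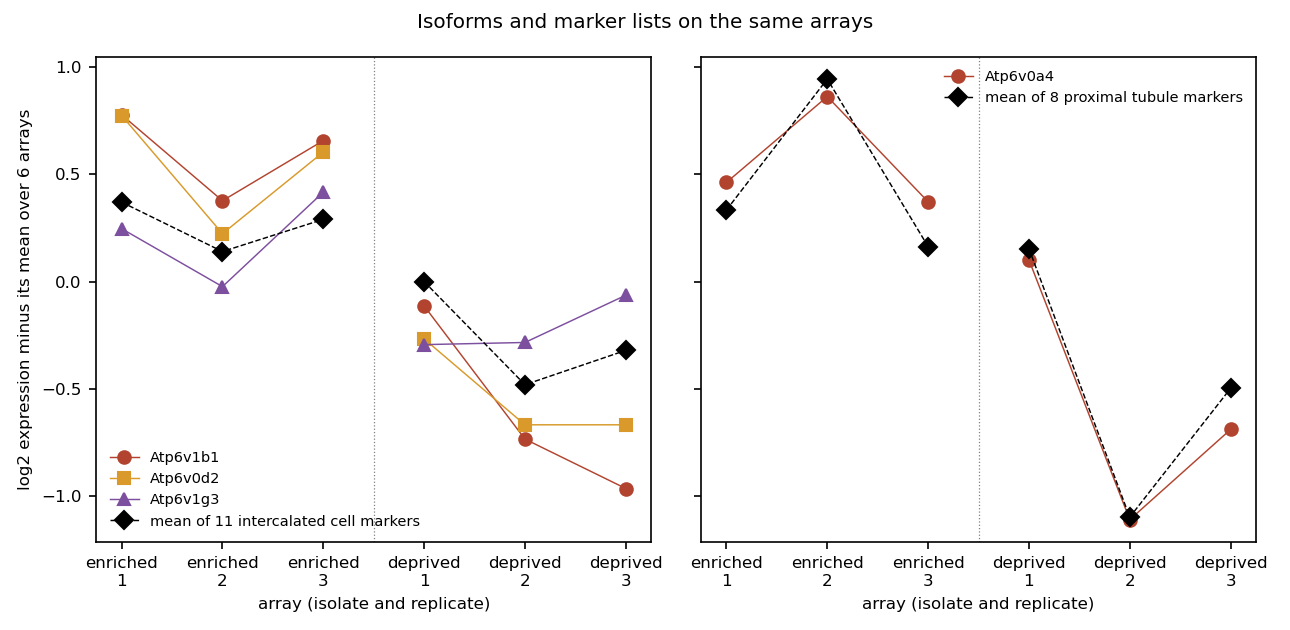
Log2 expression minus its mean over 6 arrays (y axis) on each array (x axis, isolate and replicate), for Atp6v1b1, Atp6v0d2, Atp6v1g3 and the mean of 11 intercalated cell markers (left) and for Atp6v0a4 and the mean of 8 proximal tubule markers (right). Replicates have no order and thin lines only join the points of an isolate. PEC-enriched replicate 2 is the low PEC-enriched array on the left and the high PEC-enriched array on the right. Atp6v1c2, for which it was neither, is not drawn.

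The genes that followed each kidney-enriched isoform most closely over the 6 arrays were looked up among 834 genes of above-median level whose SD over the arrays was over 0.3. This filter left out every intercalated cell marker. Only Hmx2 was above the median level (above 54.1% of genes), and its SD was too low. Slc12a1 and Egf of the thick ascending limb (above 66.7% and 84.4%) stayed in, so the search cannot set these cell types against each other. Pearson's r is given as a description, since the arrays share their isolates and many genes separate them. For Atp6v1b1 they were Slc12a1 (r = 0.988), Klk1b3 (0.983) and Egf (0.967), and Slc12a1 encodes the sodium-potassium-chloride cotransporter of the thick ascending limb. For Atp6v0d2 they were Slc12a1 (r = 0.968), Klk1 (0.966) and Ppp1r1a (0.963). For Atp6v0a4 they were Epcam, an epithelial adhesion protein, Slc16a14 and Fmo1 (r = 0.999 each). For Atp6v1c2 they were Spp1 (r = 0.985), Rab17 (0.985) and Gadd45a (0.981). Atp6v1g3 had looser neighbours in Cd24 (r = 0.852), Mal (0.837) and Ppp1r1a (0.813).

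Intercalated cell markers averaged higher in PEC-enriched isolates for 11 of 11 genes, with a median log2 fold change of 0.63. In 6 of the 11 the groups did not overlap, beside 7.24% of all probesets that were higher without overlap. At an unadjusted p under 0.05 in limma there were 7, beside 5.77% of probesets that were higher at that level. After adjustment limma called 0, while the regularised test called 3, beside 0.965% of probesets called higher. Of the 11, 3 are in the list the study chose on these arrays (Slc4a9, Slc4a1 and Rhcg). The bicarbonate exchangers of the basolateral membrane, Slc4a9 and Slc4a1, stood at 0.94 (SE 0.138, adjusted p = 0.152 in limma) and 0.79 (SE 0.17, adjusted p = 0.187 in limma). The ammonia channels Rhcg and Rhbg stood at 0.88 and 0.63, the receptor Oxgr1 at 0.85 and the chloride-bicarbonate exchanger pendrin, Slc26a4, at 0.75. The transcription factor Foxi1 stood at 0.31, Aqp6 at 0.38, Insrr at 0.19, and the transcription factors Dmrt2 and Hmx2 at 0.11 and 0.04, each with overlapping groups. The arrays carry no detection calls in the data used here, so it is not known which of these probesets lie above background.

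Proton pump genes outside the pairs had log2 fold changes of -0.18 to 0.40. Among 14 measured other subunits, 12 averaged higher and 2 lower, and their median was 0.15. At an unadjusted p under 0.05 in limma there were 4, all higher, beside 5.77% of probesets that were higher at that level. After adjustment limma and the regularised test each called 0. Atp6v1d, a shaft subunit of V1, had 0.40 (SE 0.115, adjusted p = 0.281 in limma), Atp6ap2, the prorenin receptor, 0.35, and Atp6v0e1 0.32, with no overlap between the groups. The catalytic subunit Atp6v1a stood at 0.18, also without overlap, and the proteolipid Atp6v0c at 0.18 with overlapping groups. In all, 5 of the 14 were higher without overlap, beside 7.24% of all probesets. The lower means were those of Tcirg1, the a3 subunit of osteoclasts, at -0.17, and Atp6v1e2, known from testis, at -0.18, both with overlapping groups. Of 6 measured assembly and regulation genes, 3 averaged higher and 3 lower around a median of 0.04, and Rogdi, of the complex that assembles V1 on V0, was the widest at 0.56 (SE 0.127, limma adjusted p = 0.197). The 9 measured lysosomal genes had a median of 0.16, 7 averaging higher and 2 lower, and none at an unadjusted p under 0.05 (0 of 9). Lamp1, a lysosomal membrane protein, stood at 0.16 without overlap.

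Markers of other cell types were read on the same arrays. The 5 PEC markers all averaged higher in PEC-enriched isolates without overlap (median log2 fold change 1.47), and so did the 5 thick ascending limb markers (2.22). Over all probesets 7.24% were higher without overlap. The study picked all 5 of each list from these same arrays, which leaves their direction without independent support. Distal convoluted and connecting tubule markers had a median of 1.47, with 3 of 4 higher, and those 3 (Slc12a3, Calb1 and Klk1) are in the study's list too, as are Miox of the proximal tubule and Ehd3 of endothelium. Principal cell markers had a median of 0.41, with 6 of 7 higher. The 8 proximal tubule markers were all higher (median 1.01), and their mean log2 levels ran from 9.81 to 10.59 in PEC-enriched and from 8.55 to 9.80 in PEC-deprived isolates. Endothelial markers were lower for 5 of 5 genes (-0.50), mesangial markers for 2 of 2 (-0.51), and podocyte markers had a median of 0.03. The part of these cell types in the isoform differences was not tested.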

How the data were processed

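RNA of 3 PEC-enriched and 3 PEC-deprived glomerular isolates was hybridised to Affymetrix Rat GeneChip 1.0ST arrays. The authors ran RMA (background adjustment, quantile normalization and a summary per probeset), also named in the submitters' processing notes, and deposited log2 values. The version of RMA is not given in the sources used here. Nor does the deposited table state the base of the logarithm, which was read as 2 because RMA works on that scale. Values ran from 2.13 to 13.87. No arrays were identical, and their number limits the precision.

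All 29215 probesets were fitted with limma 3.58.1 in R 4.3.3 (two-sided, no covariate) with Benjamini-Hochberg adjustment over all of them and a threshold of 0.01. Genes were named from the platform annotation (15310 probesets with 1 symbol), and a gene was its brightest probeset. The 10 members and all lists were chosen with earlier results of these data known. From other lists up to 3 genes without overlap were named, all intercalated cell markers, and Atp6v1a, Atp6v0c, Tcirg1 and Atp6v1e2, which were chosen after their values were seen. Each test was first run on 5 simulated sets of arrays with 200 changed probesets. In those sets, for a change of 1 on the log2 scale, limma recovered 87% and the regularised test 97.6%. Of their calls there, 2.15% and 11.4% were false. Recovery and false calls on the real arrays were not tested, so these shares are not carried over to them. On the real arrays limma called 0 of 29215 probesets. Umod of the thick ascending limb, at a log2 fold change of 2.88, had a limma adjusted p = 0.162. Its SD was 0.386 on PEC-enriched and 1.16 on PEC-deprived arrays. Alternatives were a block for the replicate number, a trend of variance with intensity, the regularised test, filters on probesets, cyclic loess, median centring, a threshold of 0.05 and each array left out. Prior weights of 5 and 3, arrays left out of the regularised test and overlap after rescaling were added after seeing the data. Preparations were from individual rats, and the methods give 3 animals. Whether both fractions came from the same rats is not given in the sources used here. Figures were drawn with matplotlib 3.10.9.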

Additional observations from a re-analysis of the deposited data

How the results depend on the processing

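The limma count of members called was 0 of 10 under every alternative tried except the regularised test, which called 3 members and 334 probesets. Its count of members was 0 at prior weights of 5 and 3, and ran from 2 to 4 without single arrays, Atp6v1b2 being added without PEC-deprived replicate 1. Over all probesets limma called 0 to 1 without single arrays, the 1 without PEC-deprived replicate 1. The shifts of the 5 isoform pairs kept their sign in 45 of 45 settings. These include the replicate block and median centring, which cannot change such a shift and so say nothing about its sign. Without single arrays they ran from 0.58 to 0.92 for the B subunits, 0.78 to 1.41 for a, 0.08 to 0.16 for C, 0.20 to 0.44 for G and 0.58 to 1.04 for d. The replicate block, the intensity trend, the regularised test and the filters on probesets leave a log2 fold change as it is, so they could not turn its sign. Of 126 settings of the members' log2 fold changes, these included, 2 turned the sign. Both were for Atp6v0a1, at -0.03 without PEC-enriched replicate 1 and -0.04 without PEC-deprived replicate 3. Its values ran from -0.04 to 0.12 without single arrays, and the cause was not tested. The 7 members without overlap numbered 7 with median centring and with cyclic loess. Only 3 members reached an unadjusted p under 0.05 over probesets above the median level, since the fainter probesets, among them 4 of the kidney-enriched isoforms, were left out there. With the replicate number as a block limma called 0 members and 0 probesets. The numbers were not taken as pairs because the study's methods name no pairing. Deviations of same-numbered arrays correlated at -0.029, 0.052 and 0.1, and those of differently numbered arrays at -0.135 to 0.083. These values cannot tell whether the fractions shared rats. The mean over several probesets was not run because each member has 1.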
